A study of Mus musculus with 105 samples.

Results

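The SLC25 family is the set of nuclear-encoded carriers that move metabolites across the inner mitochondrial membrane. Its members were taken as every gene of the expression table whose symbol is Slc25a followed by a number, which gave 40 members of 12966 genes. The mouse annotation lists 47 protein-coding genes under such symbols, and 7 of them (Slc25a2, Slc25a18, Slc25a30, Slc25a31, Slc25a41, Slc25a43 and Slc25a54) had no row in the table. Within the table the members were picked by name, without a cut on their values. The family itself was chosen with earlier results of these data known.

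The 105 libraries came from liver tissue of mice that had all received diethylnitrosamine (DEN), a carcinogen that is activated in hepatocytes and causes liver tumours. Sequencing group 1 held 60 libraries, 4 for each of 15 groups: wild type (WT), Shp2 KO (SKO, loss of Ptpn11, a cytoplasmic tyrosine phosphatase) and Ikk KO (IKO, loss of a kinase that activates NF-kappaB). Sequencing group 2 held 45 libraries, 3 for each of 15 groups: its own WT, beta catenin KO (BKO, loss of Ctnnb1) and cMet KO (MKO, loss of the receptor of hepatocyte growth factor). Livers were collected from every genotype at ages of 1, 3, 5 and 8 months, the last split into non-tumour (Normal) and Tumor tissue. The series title places the losses in hepatocytes, but the labels used here give no Cre driver, strain, sex, DEN dose or deleted exons, do not say which IKK subunit was lost, and do not say that the biological replicates were separate animals. P-values therefore measure the spread between these libraries.

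Each SLC25 carrier is a small membrane protein built from repeated pairs of transmembrane helices, and most members exchange 1 substrate for another. In hepatocytes these carriers link the cytosol to the matrix: they supply phosphate and ADP for ATP synthesis, carry citrate and dicarboxylates for lipid and glucose synthesis, move ornithine, aspartate and glutamate for the urea cycle, bring in acylcarnitines for fatty acid oxidation, and deliver cofactors such as NAD, coenzyme A and folate. Slc25a47 is a member known for expression mainly in hepatocytes.

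Libraries were poly(A)-linked 3′-end libraries, in which a transcript gives reads near its end. Library totals were 4676444 to 10863046 reads in the first sequencing group and 6650086 to 20231121 in the second. Values below are normalised reads per library, and differences are on the deposited variance-stabilised log2 scale with their standard error (SE), a scale that understates the change of genes with few reads. Members ranged in median from 4.87 normalised reads (Slc25a53) to 8735 (Slc25a39), and levels were not compared between genes. A gene was called at a Benjamini-Hochberg adjusted p below 0.05 over all 12966 genes in limma. No hepatocyte marker of the list used (Alb, Apoa1, Ttr and 7 others) was at 0 in any group. Ptpn11 was lower in SKO than in WT libraries except in SKO 3-month replicate 2, whose 375 normalised reads lay within the WT range, so that this library went against its label. Ikbkb was lower in IKO without overlap at 1 and 5 months and overlapped WT at 3 months and in both tissues at 8 months. At 1 month SKO was also below WT for Ikbkb without overlap (208.4 to 271.3 against 296.1 to 427.3), so the fall at that age was not particular to IKO. Ctnnb1 in BKO overlapped WT at every stage; Met in MKO overlapped WT at 1 and 3 months. As the labels do not say which exons were deleted, 3′ reads of these genes may lie outside the deleted part and then check nothing.

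Of the members, 3 fell in tumours of every genotype, as described next, and the 250 bases upstream of their RefSeq start sites (GRCm38.p6) are printed 5′ to 3′ on the strand of the gene to show what sequence these 3 promoters do and do not share. Capitals mark the CCAAT box (CCAAT or its reverse complement ATTGG) and the GC box (GGGCGG or CCGCCC).
Slc25a21, chr12:57197473-57197722, minus strand: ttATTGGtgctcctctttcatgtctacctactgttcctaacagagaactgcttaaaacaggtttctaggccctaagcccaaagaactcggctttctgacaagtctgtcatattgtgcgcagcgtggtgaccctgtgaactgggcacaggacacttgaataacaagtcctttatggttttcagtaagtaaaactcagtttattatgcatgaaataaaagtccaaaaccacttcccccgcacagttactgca
Slc25a23, chr17:57059864-57060113, minus strand: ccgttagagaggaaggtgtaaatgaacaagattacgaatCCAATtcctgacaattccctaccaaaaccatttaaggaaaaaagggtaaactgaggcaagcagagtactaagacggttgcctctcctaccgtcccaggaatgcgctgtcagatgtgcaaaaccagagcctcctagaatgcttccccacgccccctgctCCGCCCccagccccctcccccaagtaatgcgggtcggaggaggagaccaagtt
Slc25a42, chr8:70212282-70212531, minus strand: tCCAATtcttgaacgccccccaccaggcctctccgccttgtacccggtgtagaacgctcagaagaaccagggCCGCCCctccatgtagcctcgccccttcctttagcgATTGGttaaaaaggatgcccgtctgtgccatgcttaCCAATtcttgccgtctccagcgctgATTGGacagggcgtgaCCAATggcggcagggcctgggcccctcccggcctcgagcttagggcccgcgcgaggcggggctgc
The Slc25a21 window held 43.2% G and C, 1 CCAAT box and no GC box. The Slc25a23 window held 52.4% G and C, 1 CCAAT box and 1 GC box, and the Slc25a42 window held 63.6% G and C, 5 CCAAT boxes and 1 GC box. A promoter was listed for 31 of the 40 members, with a median of 58.4% G and C against 52.0% over the promoters of 27025 genes. A GC box lay in 22 of the 31 member windows (71%) and in 33% of all windows, and a CCAAT box in 15 (48.4%) against 34.5%. An E-box (CACGTG) lay in 5 (16.1%) against 6.04%, a TCF/LEF element (ATCAAAG) in 1 (Slc25a28; 3.23%) against 3.26%, and a cAMP response element (TGACGTCA) in 1 (Slc25a36; 3.23%) against 1.6%. The NRF1 half-site (CATGCGC) and the ERR element (TCAAGGTCA) lay in 0 of 31, against 3.3% and 0.366%. Both strands were searched, from the furthest upstream start listed for each gene. The 27025 genes were not limited to those measured here, whereas every member was measured, so the shares compare unlike sets. A match is a description of the letters only.

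The first question was how the carriers in tumours compare with those in non-tumour liver of the same age, and it has 6 answers that share no library: WT of each sequencing group, SKO, IKO, BKO and MKO. The direction was mostly down. In WT of sequencing group 1, 18 members fell and 6 rose, where 19.2% of all genes fell and 22.9% rose (42.1% called). In WT of sequencing group 2, 13 fell and 0 rose, against 12.0% and 15.0% of all genes (27.1% called). SKO had 15 lower and 6 higher members, against 18.7% and 21.0% of all genes (39.7% called). IKO had 10 and 5, against 15.1% and 18.2% (33.3% called). BKO had 11 and 0, against 6.32% and 8.39% (14.7% called), and MKO 7 and 3, against 7.56% and 9.76% (17.3% called). The median difference of the 40 members was -0.26, -0.24, -0.15, -0.07, -0.18 and -0.19 in the same order, and that of all genes lay between 0.01 and 0.04 throughout. Slc25a21, Slc25a42 and Slc25a23 fell in all 6; members that fell in 5 included Slc25a15, Slc25a16 and Slc25a51. The BKO and MKO calls rest on a spread estimated over all groups of the sequencing group: with only the groups compared in the fit, 0 members were called in either. The adjusted p was then 0.0858 (BKO) and 0.108 (MKO) for Slc25a21, 0.131 and 0.0572 for Slc25a42, and 0.14 and 0.0551 for Slc25a23. The call of Slc25a15 in IKO was lost without IKO 8-month tumour replicate 2 (adjusted p = 0.0568), and that of Slc25a16 in MKO without MKO 8-month non-tumour replicate 1 (adjusted p = 0.102) or MKO 8-month non-tumour replicate 3 (adjusted p = 0.124) or MKO 8-month tumour replicate 1 (adjusted p = 0.119) or MKO 8-month tumour replicate 2 (adjusted p = 0.0855). 14 members lay below 0 in all 6 sets and 3 (Slc25a4, Slc25a24 and Slc25a27) above 0 in all 6, called or not. The share of all genes that did so, or that fell in 5 or 6 sets, was not counted. These counts over sets are therefore not read as unusual.

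**Figure D1:**
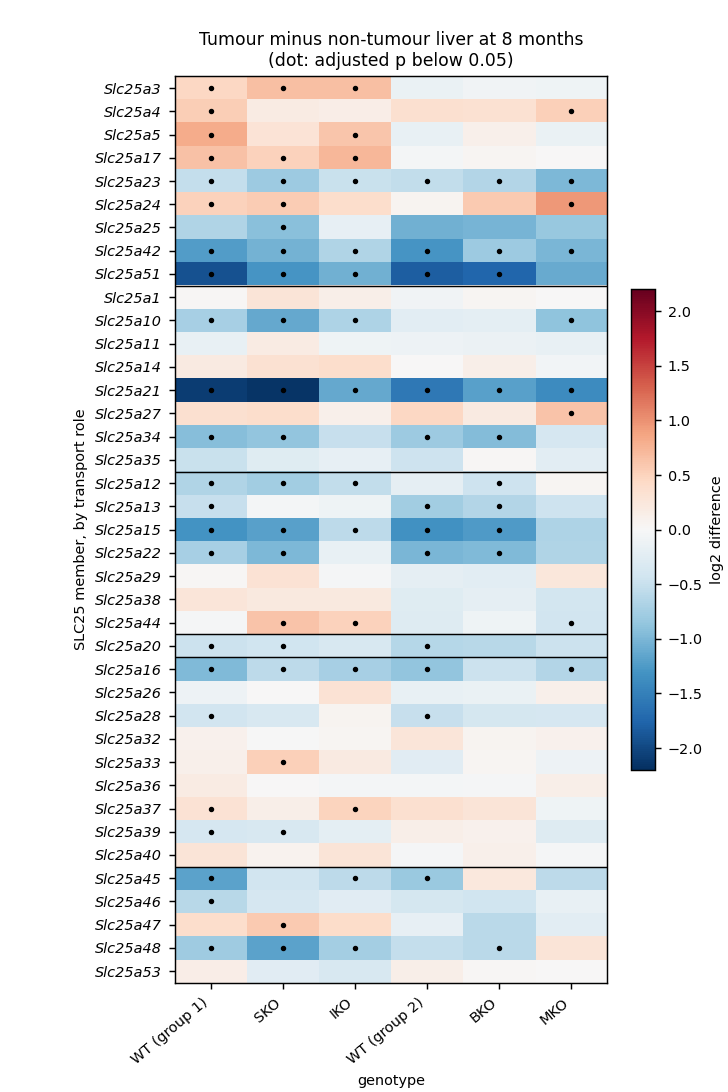
Tumour minus non-tumour difference at 8 months (colour, log2 scale) for the members in rows, ordered by transport role, and the 6 sets in columns; a dot marks an adjusted p below 0.05. Blue runs across the rows of Slc25a21 (from -2.15 to -1.12), Slc25a42 (from -1.29 to -0.66) and Slc25a23 (from -0.99 to -0.49), each with 6 dots.

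Slc25a21 carries 2-oxoadipate and 2-oxoglutarate, intermediates of lysine and tryptophan breakdown (chromosome 12, 56712634 to 57197472, minus strand). WT livers of sequencing group 1 had 65.0, 92.6, 109.9 and 92.5 normalised reads at 8 months, and their tumours had 9.2, 9.01, 0 and 16.9. It fell by 2.08 ± 0.20 (adjusted p = 3.43e-12). SKO livers had 78.3, 88.2, 98.0 and 117 and SKO tumours 10.8, 4.72, 7.91 and 3.08, a fall of 2.15 ± 0.20 (adjusted p = 1.6e-12). No tumour library of either genotype reached the lowest non-tumour library. IKO livers had 88.6, 92.5, 69.3 and 90.8 and IKO tumours 33.6, 15.99, 25.8 and 34.2, a fall of 1.12 ± 0.20 (adjusted p = 1.47e-05). In sequencing group 2, WT went from 62.8, 89.5 and 104 to 12.8, 30.4 and 5.38 (-1.57 ± 0.29 (adjusted p = 8.25e-05)), BKO from 19.3, 75.3 and 49.5 to 5.23, 7.9 and 12.9 (-1.20 ± 0.29 (adjusted p = 0.00397)), and MKO from 104, 50.9 and 75.1 to 4.58, 10.1 and 46.7 (-1.38 ± 0.29 (adjusted p = 0.00107)). The groups did not overlap in any of the 6 sets. The BKO call was lost without BKO 8-month non-tumour replicate 2 (adjusted p = 0.0675).

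**Figure D2:**
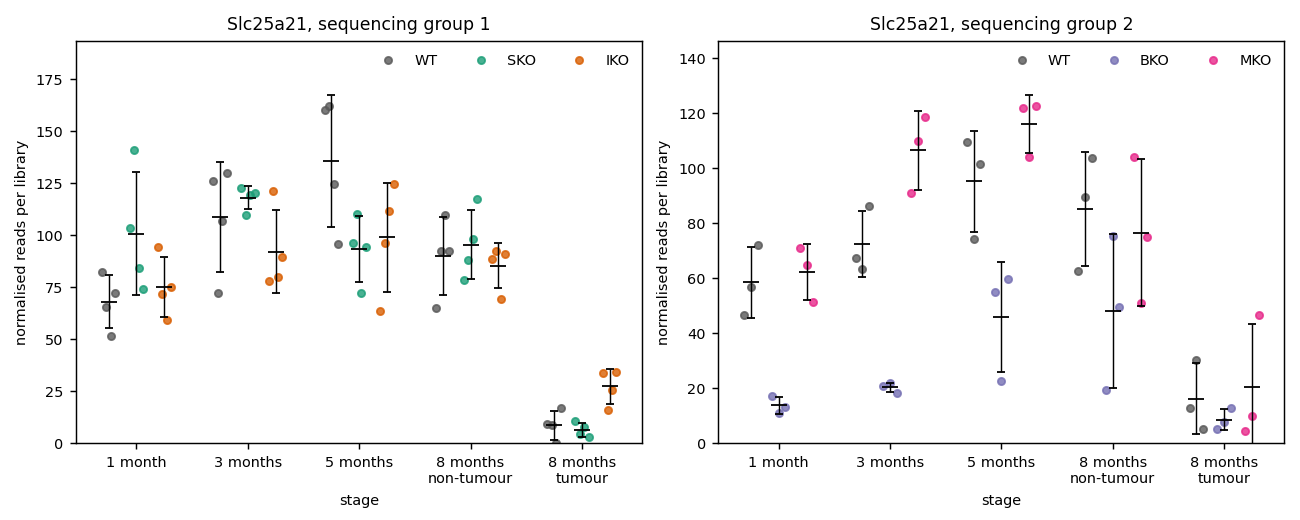
Slc25a21 in every library (points, normalised reads, linear axis from 0) by stage and genotype, with the mean and SD as bars; sequencing group 1 on the left (n = 4 each), group 2 on the right (n = 3 each). The tumour column is low in every genotype, and the BKO points at 1 and 3 months lie between 11.1 and 21.8, below all WT points of those stages.

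Among the adenine nucleotide and phosphate carriers, 9 of which were measured, 3 fell and 5 rose in WT tumours of sequencing group 1. Of all genes, 19.2% fell and 22.9% rose there. Slc25a42, which imports coenzyme A in exchange for adenine nucleotides (chromosome 8, 70184340 to 70212305, minus strand), had 182, 195, 213 and 144 normalised reads in WT livers and 69.0, 69.1, 49.6 and 67.5 in their tumours (-1.22 ± 0.17 (adjusted p = 6.05e-08)). In WT of sequencing group 2 it went from 162, 258 and 261 to 57.1, 102 and 72.9 (-1.29 ± 0.23 (adjusted p = 5.67e-05)). It did not overlap in any set; it fell by 1.05 ± 0.17 in SKO, 0.66 ± 0.17 in IKO, 1.01 ± 0.23 in MKO and 0.81 ± 0.23 in BKO. The BKO call was lost without BKO 8-month non-tumour replicate 2 (adjusted p = 0.108) or BKO 8-month non-tumour replicate 3 (adjusted p = 0.108) or BKO 8-month tumour replicate 1 (adjusted p = 0.109).

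Slc25a23, a calcium-regulated carrier that exchanges ATP-Mg for phosphate (chromosome 17, 57043711 to 57059863, minus strand), had 3080, 3004, 3102 and 2692 in WT livers and 2101, 2083, 2072 and 1935 in tumours (-0.53 ± 0.13 (adjusted p = 0.000571)). MKO livers had 3464, 3048 and 2827 and MKO tumours 1343, 1557 and 1757, its steepest fall (-0.99 ± 0.16 (adjusted p = 9.83e-05)). It too overlapped in no set. Quantile normalization of the table ended its call in both WT sets (adjusted p = 0.0783 and 0.0631), and the second was also lost without WT 8-month non-tumour replicate 2 (adjusted p = 0.05) or WT 8-month tumour replicate 1 (adjusted p = 0.0803). Its BKO call was lost without BKO 8-month non-tumour replicate 3 (adjusted p = 0.0985).

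Slc25a51 imports NAD into the matrix (chromosome 4, 45395923 to 45408766, minus strand). WT livers of sequencing group 1 had 549, 799, 502 and 621 normalised reads and their tumours 144, 130.1, 151 and 139 (-1.92 ± 0.25 (adjusted p = 9.53e-09)). The 4 tumours lay within a narrow band far below every non-tumour library. BKO went from 472, 1515 and 903 to 135, 313 and 315 (-1.75 ± 0.40 (adjusted p = 0.00291)), and this call was lost without BKO 8-month non-tumour replicate 2 (adjusted p = 0.0527). In MKO its difference was -1.10 ± 0.40 and was not called (adjusted p = 0.0523).

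Other carriers of this role were higher in tumours. Slc25a3, the phosphate carrier of ATP synthesis, had 1368, 989, 1305 and 1115 in IKO livers and 1901, 1943, 1836 and 1903 in IKO tumours (0.67 ± 0.13 (adjusted p = 4.1e-05)); it also rose in SKO (0.65 ± 0.13) and WT (0.45 ± 0.13) of sequencing group 1. In sequencing group 2 its differences were -0.14 ± 0.13 in WT, -0.08 ± 0.13 in BKO and -0.10 ± 0.13 in MKO, none called. Slc25a17, a carrier of the peroxisomal membrane for coenzyme A, FAD and NAD, had 178, 179, 193 and 178 in WT livers and 391, 314, 253 and 254 in tumours (0.64 ± 0.16 (adjusted p = 0.00111)), without overlap. Slc25a5, the ADP/ATP exchanger of dividing tissue, rose in WT of sequencing group 1 (0.82 ± 0.17 (adjusted p = 0.000137)) and in IKO (0.61 ± 0.17 (adjusted p = 0.00475)); it has near-identical processed copies in the mouse genome, and how reads shared with them were counted is not given in the sources used here.

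Slc25a24, another ATP-Mg and phosphate carrier, had few reads in liver: MKO livers had 21.7, 40.4 and 19.6 and MKO tumours 128, 80.6 and 32.4 (0.96 ± 0.24 (adjusted p = 0.00628)). Those groups overlapped, since MKO tumour replicate 3 lay below MKO non-tumour replicate 2. Slc25a24 also rose in SKO (0.56 ± 0.21 (adjusted p = 0.0284)) and WT of sequencing group 1 (0.50 ± 0.21 (adjusted p = 0.0485)). The MKO call was lost without MKO 8-month tumour replicate 1 (adjusted p = 0.114), the SKO call without SKO 8-month non-tumour replicate 2 (adjusted p = 0.137) or SKO 8-month non-tumour replicate 3 (adjusted p = 0.0539) or SKO 8-month tumour replicate 1 (adjusted p = 0.0746) or SKO 8-month tumour replicate 2 (adjusted p = 0.0524) and the WT call without WT 8-month non-tumour replicate 1 (adjusted p = 0.132) or WT 8-month non-tumour replicate 2 (adjusted p = 0.0827) or WT 8-month non-tumour replicate 3 (adjusted p = 0.051) or WT 8-month non-tumour replicate 4 (adjusted p = 0.0562) or WT 8-month tumour replicate 1 (adjusted p = 0.146) or WT 8-month tumour replicate 4 (adjusted p = 0.227).

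Of 7 amino acid carriers measured, 4 fell in WT tumours of sequencing group 1 and 3 in those of group 2, and 0 rose in either. Of all genes, 19.2% fell and 22.9% rose in the first, and 12.0% fell and 15.0% rose in the second. Slc25a15, which exchanges ornithine for citrulline in the urea cycle (chromosome 8, 22375551 to 22398597, minus strand), had 1277, 1151, 1016 and 1150 normalised reads in WT livers and 448, 426, 459 and 449 in tumours (-1.31 ± 0.18 (adjusted p = 2.44e-08)). SKO went from 632, 914, 744 and 1315 to 516, 337, 296 and 343 (-1.19 ± 0.18 (adjusted p = 2.42e-07)). All tumour libraries of these genotypes lay below all non-tumour ones. Slc25a12, an aspartate/glutamate exchanger of the malate-aspartate shuttle, went from 318, 370.2, 316 and 309.7 to 159.5, 192, 226 and 214 in WT of sequencing group 1 (-0.67 ± 0.12 (adjusted p = 1.11e-05)), and it also fell in SKO, IKO and BKO, the BKO call being lost without BKO 8-month non-tumour replicate 1 (adjusted p = 0.0629) or BKO 8-month non-tumour replicate 2 (adjusted p = 0.173) or BKO 8-month non-tumour replicate 3 (adjusted p = 0.0834) or BKO 8-month tumour replicate 2 (adjusted p = 0.0587) or BKO 8-month tumour replicate 3 (adjusted p = 0.22). Its paralog Slc25a13 (citrin) had 956, 864 and 1094 in WT livers of sequencing group 2 and 491, 657 and 539.7 in tumours (-0.76 ± 0.21 (adjusted p = 0.00632)). Slc25a22, a glutamate carrier, had 294, 415 and 442 and 169, 203 and 154 in the same groups (-1.01 ± 0.24 (adjusted p = 0.00168)), and it also fell in SKO, BKO and WT of sequencing group 1, the BKO call being lost without BKO 8-month non-tumour replicate 2 (adjusted p = 0.0768) or BKO 8-month tumour replicate 1 (adjusted p = 0.0563). In IKO its difference was -0.16 ± 0.21 (adjusted p = 0.592).

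Slc25a44, which carries branched-chain amino acids, was the only member called in both directions. SKO livers had 162, 188, 183 and 203 normalised reads and SKO tumours 318, 329, 244 and 305 (0.62 ± 0.16 (adjusted p = 0.00106)). IKO went from 313, 230.5, 315 and 248 to 488, 341, 371 and 409 (0.50 ± 0.16 (adjusted p = 0.0107)). MKO went from 217, 197 and 251 to 148, 133 and 197 (-0.42 ± 0.14 (adjusted p = 0.0327)). The SKO tumours lay above all SKO livers, whereas MKO tumour replicate 3 and MKO non-tumour replicate 2 had nearly the same value. The IKO call was lost without IKO 8-month non-tumour replicate 2 (adjusted p = 0.0547) or IKO 8-month tumour replicate 1 (adjusted p = 0.0547), and the MKO call without MKO 8-month non-tumour replicate 1 (adjusted p = 0.0701) or MKO 8-month non-tumour replicate 3 (adjusted p = 0.166) or MKO 8-month tumour replicate 1 (adjusted p = 0.128) or MKO 8-month tumour replicate 2 (adjusted p = 0.181).

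Of the dicarboxylate, tricarboxylate and keto acid carriers, Slc25a10, the dicarboxylate carrier of gluconeogenesis, fell with Slc25a21. WT livers of sequencing group 1 had 2283, 2991, 2866 and 2561 and their tumours 1683, 1450, 1551 and 1720 (-0.73 ± 0.17 (adjusted p = 0.000481)); SKO went from 2844, 3942, 2946 and 2703 to 1290, 1605, 1212 and 1473 (-1.13 ± 0.17 (adjusted p = 3.64e-07)). It also fell in IKO and, with overlap, in MKO (-0.88 ± 0.31 (adjusted p = 0.0426)), where the call was lost without MKO 8-month non-tumour replicate 1 (adjusted p = 0.101) or MKO 8-month non-tumour replicate 3 (adjusted p = 0.211) or MKO 8-month tumour replicate 1 (adjusted p = 0.211) or MKO 8-month tumour replicate 2 (adjusted p = 0.286). Slc25a34, whose substrate is less settled, had 15.9, 17.6 and 12.6 in WT livers of sequencing group 2 and 1.93, 5.48 and 1.79 in tumours (-0.80 ± 0.18 (adjusted p = 0.000843)). Its low read numbers make the log2 difference an understatement. Slc25a1, the citrate carrier, and Slc25a11, the 2-oxoglutarate/malate carrier, were called in no set, with differences between -0.08 and 0.29 for Slc25a1.

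Among 10 cofactor, vitamin, metal, nucleotide and glutathione carriers, 4 fell and 1 rose in WT of sequencing group 1, and 3 fell in WT of group 2. The shares of all genes were 19.2% lower and 22.9% higher in the first, and 12.0% lower and 15.0% higher in the second. Slc25a16, linked to coenzyme A, had 89.4, 109.6, 87.1 and 85.8 normalised reads in WT livers of sequencing group 1 and 41.4, 30.0, 33.5 and 39.8 in tumours (-0.97 ± 0.14 (adjusted p = 7.32e-08)). Its libraries did not overlap in any set, and BKO was the set without a call (-0.47 ± 0.21 (adjusted p = 0.128)). Slc25a39, the glutathione carrier, fell in WT of sequencing group 1, from 10520, 10600, 10730 and 9493 to 7784, 7798, 8731 and 7867 (-0.36 ± 0.13 (adjusted p = 0.022)), and that call was lost without WT 8-month non-tumour replicate 3 (adjusted p = 0.0514) and under quantile normalization (adjusted p = 0.303). Slc25a37, the iron importer mitoferrin-1, rose in IKO (0.49 ± 0.12 (adjusted p = 0.000678)) and in WT of sequencing group 1 (0.31 ± 0.12 (adjusted p = 0.0238)), the latter lost without WT 8-month non-tumour replicate 3 (adjusted p = 0.0856) or WT 8-month tumour replicate 1 (adjusted p = 0.103) or WT 8-month tumour replicate 4 (adjusted p = 0.0935).

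Slc25a20, the carnitine/acylcarnitine carrier of fatty acid oxidation, had 399, 363 and 458 in WT livers of sequencing group 2 and 234, 260.5 and 265 in tumours (-0.63 ± 0.22 (adjusted p = 0.0304)). It also fell in SKO (-0.44 ± 0.17 (adjusted p = 0.0386)) and in WT of sequencing group 1 (-0.47 ± 0.17 (adjusted p = 0.0242)). Each of these 3 calls depended on single libraries: the first was lost without WT 8-month non-tumour replicate 1 (adjusted p = 0.0631) or WT 8-month non-tumour replicate 3 (adjusted p = 0.115) or WT 8-month tumour replicate 1 (adjusted p = 0.0985) or WT 8-month tumour replicate 3 (adjusted p = 0.0568), the second without SKO 8-month non-tumour replicate 2 (adjusted p = 0.0821) or SKO 8-month non-tumour replicate 4 (adjusted p = 0.114) or SKO 8-month tumour replicate 2 (adjusted p = 0.139) or SKO 8-month tumour replicate 3 (adjusted p = 0.106) or SKO 8-month tumour replicate 4 (adjusted p = 0.125) and the third without WT 8-month non-tumour replicate 2 (adjusted p = 0.0638) or WT 8-month non-tumour replicate 3 (adjusted p = 0.0958) or WT 8-month tumour replicate 1 (adjusted p = 0.0664) or WT 8-month tumour replicate 3 (adjusted p = 0.0664) or WT 8-month tumour replicate 4 (adjusted p = 0.093). Carriers of less settled substrate also moved: Slc25a48, linked to choline, went from 154, 151, 148 and 153 to 75.3, 74.6, 76.2 and 94.0 in IKO (-0.75 ± 0.22 (adjusted p = 0.00595)), and Slc25a45 from 587, 568, 485 and 393 to 302, 120.1, 158 and 316 in WT of sequencing group 1 (-1.17 ± 0.19 (adjusted p = 1.96e-06)), neither with overlap. Slc25a47 was called in 1 of the 6 sets, higher in SKO tumours (0.58 ± 0.23 (adjusted p = 0.0418)), and that call was lost without SKO 8-month non-tumour replicate 1 (adjusted p = 0.131) or SKO 8-month non-tumour replicate 2 (adjusted p = 0.0698) or SKO 8-month non-tumour replicate 4 (adjusted p = 0.0586) or SKO 8-month tumour replicate 2 (adjusted p = 0.0987) or SKO 8-month tumour replicate 3 (adjusted p = 0.118).

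Cell-type markers moved with these differences. Summed normalised reads of the 10 hepatocyte markers were 311000 to 737000 in WT livers of sequencing group 1 and 1580000 to 2050000 in their tumours, and they were higher in tumours without overlap in the other 5 sets as well. In such a sum the most abundant markers weigh most, and single markers may go the other way. How many of the 10 rose or fell in tumours is not given here. Of the 8 proliferation genes, 7 rose in WT of sequencing group 1, 8 in WT of group 2, 5 in SKO, 4 in IKO, 2 in BKO and 0 in MKO. The summed proliferation reads were 71.0 to 154 in WT livers and 402 to 774 in WT tumours of sequencing group 1. The summed cholangiocyte markers went from 139 to 475 in WT livers to 756 to 3850 in WT tumours of sequencing group 1, and from 148 to 192 to 538 to 611 in group 2. Stellate and fibroblast markers went from 1730 to 2300 to 2550 to 4960 in the first, and from 2050 to 2460 to 2740 to 4780 in the second. Both lists were thus higher in WT tumours without overlap, and in each of the knockouts tumour and non-tumour ranges overlapped. Erythroid markers were lower without overlap in WT tumours of sequencing group 1 (3000 to 4150 against 4690 to 7290), as were the 2 neutrophil markers measured (7.44 to 17.0 against 21.3 to 319), and macrophage markers were lower in SKO tumours (5300 to 6430 against 7980 to 8810). The part of these cells in the differences of the carriers was not tested. In bulk tissue, fewer cells of a type and less RNA per cell cannot be told apart.

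Omitting a library changed the count of called carriers by over 1.5 times in BKO and MKO only. The BKO count of 11 became 3 without BKO 8-month non-tumour replicate 2, 6 without replicate 3 of that group, and 6 without BKO 8-month tumour replicate 1. The MKO count of 10 became 5, 16 and 6 without MKO non-tumour replicates 1, 2 and 3, and 5, 5 and 17 without MKO tumour replicates 1, 2 and 3. Tumour and non-tumour libraries of BKO with the same replicate number deviated together, and with that number as a block Slc25a20 was also called in BKO (-0.60, adjusted p = 0.0275).

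Next, each knockout was compared with WT in non-tumour liver, as the mean of the differences at 4 stages. SKO moved 9 of the 40 carriers, 7 up and 2 down (22.5%, against 22.9% of all genes, 12.0% up and 10.9% down). The smallest p-value was that of a fall of Slc25a32, the carrier that imports folate and FAD into the matrix (chromosome 15, 39091231 to 39112716, minus strand), followed by a rise of the iron importer Slc25a37 and a fall of Slc25a44. IKO moved 5 carriers, all up (12.5%, against 9.04%, 3.87% up and 5.17% down). BKO moved 10, 3 up and 7 down (25%, against 19.6%, 10.6% up and 9.04% down), with Slc25a4 the strongest rise and Slc25a21 the strongest fall. MKO moved 1, Slc25a44, down (2.5%, against 2.71%, 1.58% up and 1.13% down). SKO and IKO share their WT libraries, and so do BKO and MKO, so their values are given side by side.

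**Figure D3:**
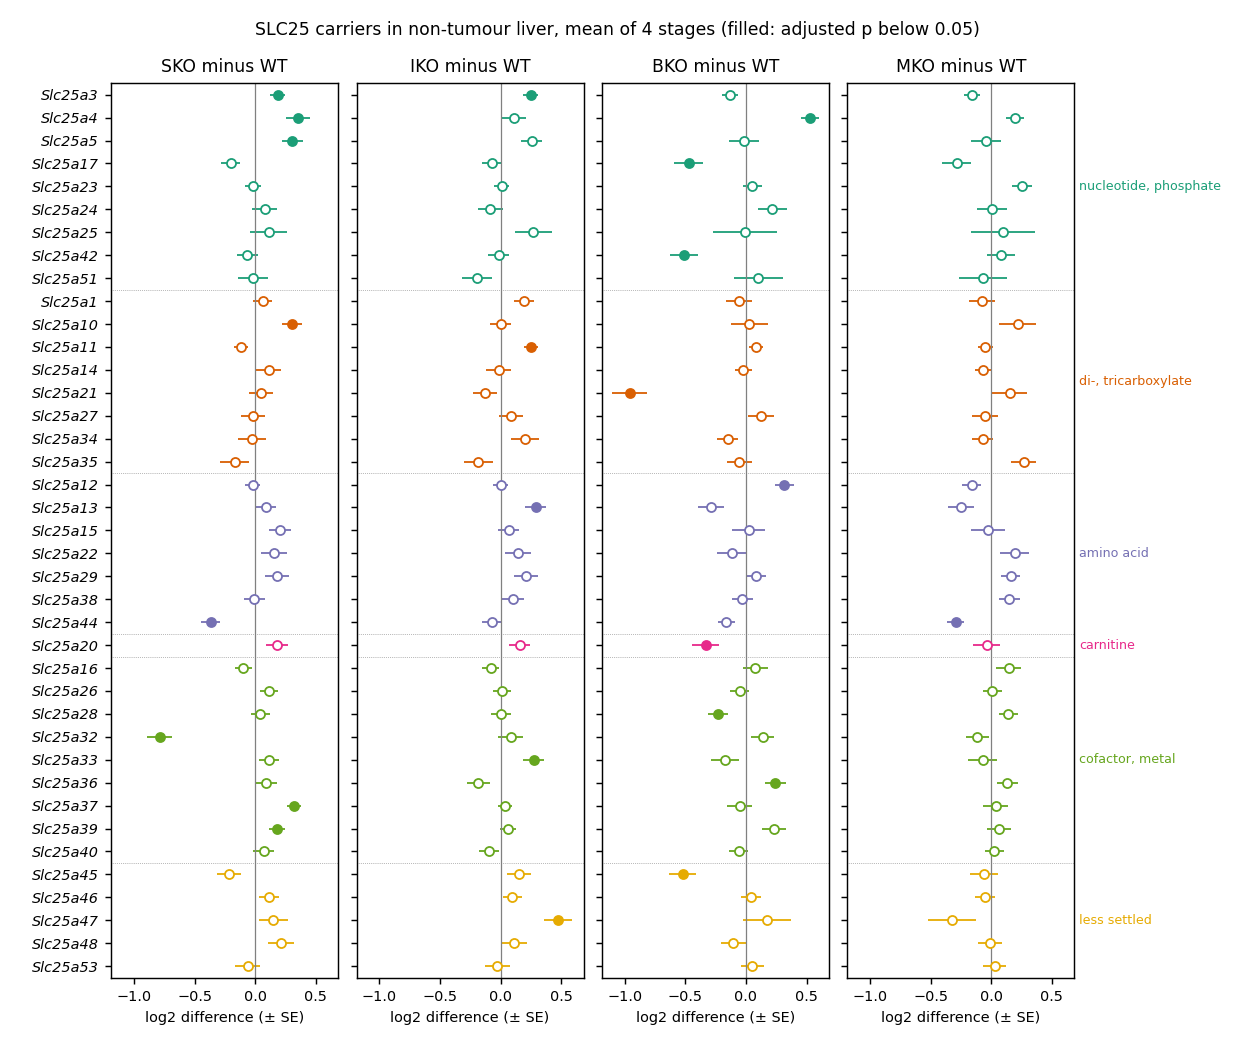
Knockout minus WT difference (log2 scale, mean of 4 non-tumour stages, bars ± SE) for the members, in 1 panel per knockout; filled points had an adjusted p below 0.05. Slc25a32 stands at -0.79 in SKO, Slc25a21 at -0.96 and Slc25a4 at 0.53 in BKO, and 1 point is filled in MKO.

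At 1 month WT livers had 102, 119, 88.6 and 103 normalised reads of Slc25a32 and SKO livers 43.8, 63.8, 33.8 and 17.9. At 5 months WT had 155, 196, 256 and 169 and SKO 19.9, 53.1, 66.3 and 36.3. SKO lay below WT without overlap at both ages, and at 3 months, with 119, 114, 164 and 132 in WT and 80.7, 144, 155 and 125 in SKO, it did not. At 8 months the non-tumour values were 112, 105, 134 and 76.4 in WT and 56.5, 109, 94.7 and 66.8 in SKO. The differences were -1.05 ± 0.20, -0.07 ± 0.20, -1.71 ± 0.20 and -0.31 ± 0.20 from 1 to 8 months, the mean was -0.79 ± 0.10 (adjusted p = 2.53e-08), and they differed between stages (adjusted p = 0.00174, F test). The stage with the smallest difference, 3 months, includes SKO replicate 2, the library whose Ptpn11 was at the WT level, but SKO replicates 3 and 4 of that stage were also within the WT range of Slc25a32. Without that library, 10 carriers were called in the stage average and 11 by stage. In IKO the Slc25a32 difference was 0.08 ± 0.10 (adjusted p = 0.674), with 153, 184, 153 and 112 normalised reads at 1 month.

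**Figure D4:**
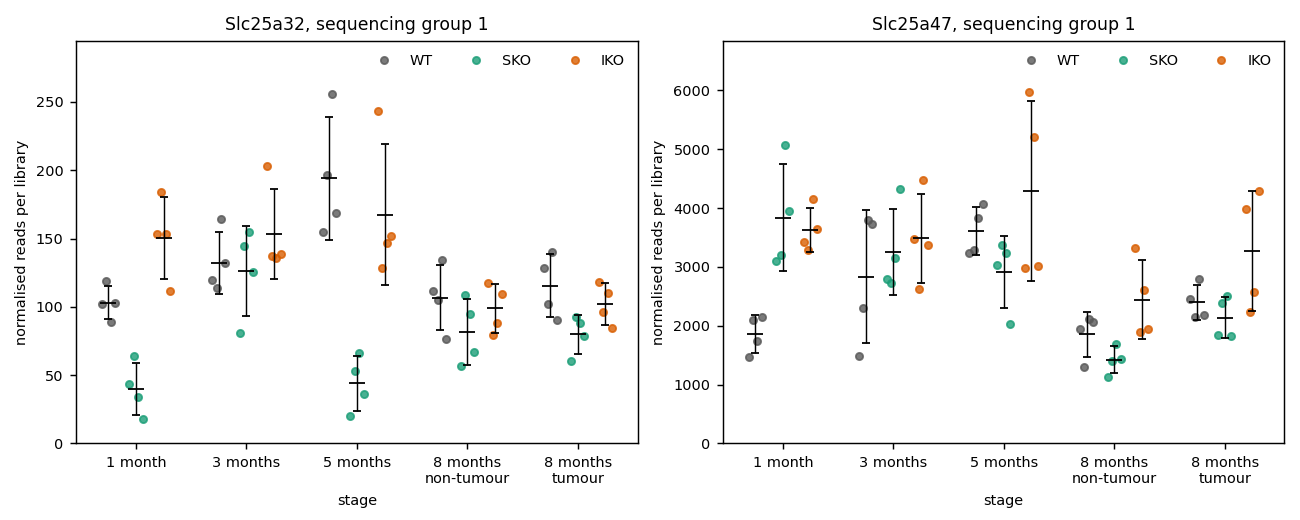
Slc25a32 (left) and Slc25a47 (right) in every library of sequencing group 1 (points, normalised reads, linear axis from 0) by stage for WT, SKO and IKO, with the mean and SD of 4 libraries. SKO points of Slc25a32 fall below WT at 1 and 5 months, and SKO and IKO points of Slc25a47 lie above WT at 1 month.

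Slc25a37 had 166, 195, 205 and 187 normalised reads in WT and 287, 315, 287 and 325 in SKO at 1 month, and 194, 192, 169 and 202 against 245, 269.9, 261 and 252 at 8 months. SKO lay above WT at those ages and at 3 months without overlap, and the mean difference was 0.32 ± 0.06 (adjusted p = 2.37e-05). Its stage differences were 0.62 ± 0.12, 0.37 ± 0.12, -0.10 ± 0.12 and 0.39 ± 0.12 (adjusted p = 0.0207 for a difference between stages, lost without WT 5-month replicate 3 (adjusted p = 0.0703)). Slc25a44 had 408, 294, 372 and 338 in WT and 162, 188, 183 and 203 in SKO at 8 months, and its mean difference was -0.37 ± 0.08 (adjusted p = 0.000334). Every SKO library at 8 months was below every WT library; the differences at 1, 3 and 5 months were -0.12 ± 0.16, -0.43 ± 0.16 and -0.08 ± 0.16.

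Other carriers that rose in SKO livers included the dicarboxylate carrier Slc25a10 (0.30 ± 0.09 (adjusted p = 0.00647)) and the ADP/ATP exchangers Slc25a4 (0.35 ± 0.10 (adjusted p = 0.00716)) and Slc25a5 (0.31 ± 0.09 (adjusted p = 0.00751)). Slc25a10 had 2216, 2417, 2563 and 2059 normalised reads in WT and 4376, 4239, 3751 and 3799 in SKO at 1 month, and 3405, 2918, 3177 and 3894 against 3048, 2955, 1886 and 2487 at 5 months. It was thus higher in SKO without overlap at 1 month, whereas at 5 months 2 of the 4 SKO libraries were below the WT range, the other 2 were within it, and the difference was -0.38 ± 0.17. Slc25a4 had 86.2, 114, 84.4 and 146 and 242, 225, 173 and 163 at 8 months, its widest gap (0.77 ± 0.20). Slc25a3 (0.19 ± 0.06 (adjusted p = 0.0258)) and the glutathione carrier Slc25a39 (0.18 ± 0.07 (adjusted p = 0.0416)) were called by small differences. The Slc25a3 call was lost without WT 1-month replicate 2 (adjusted p = 0.0553) or WT 3-month replicate 1 (adjusted p = 0.0654), and the Slc25a39 call without any of 15 libraries (adjusted p from 0.051 to 0.0878).

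The first age carried several of these calls. At 3, 5 and 8 months alone, 5 carriers were called in SKO, and those no longer called included Slc25a3 (adjusted p = 0.65), Slc25a5 (0.222), Slc25a10 (0.381) and Slc25a39. The SKO difference varied with stage in 9 members (22.5%, against 5.68% of all genes), led by Slc25a32, Slc25a15 (adjusted p = 0.00556), Slc25a10 (adjusted p = 0.00648) and Slc25a12 (adjusted p = 0.0132). Slc25a15 had 920.0, 786, 779 and 894 in WT and 1226, 1743, 1446 and 1287 in SKO at 1 month, and 1277, 1151, 1016 and 1150 against 632, 914, 744 and 1315 at 8 months. Its differences went from 0.73 ± 0.18 at 1 month to -0.39 ± 0.18 at 8 months, where the groups overlapped. Slc25a12 had the opposite course, -0.45 ± 0.12 at 1 month and 0.37 ± 0.12 at 3 months. With quantile normalization 5 members varied with stage.

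Slc25a47 had 1463, 2091, 1734 and 2157 normalised reads in WT livers at 1 month, 3101, 3209, 5075 and 3954 in SKO and 3423, 3291, 4150 and 3648 in IKO (chromosome 12, 108836046 to 108856815, plus strand). Both knockouts were above WT at that age without overlap, by 1.02 ± 0.23 and 0.96 ± 0.23. At 8 months the SKO difference was -0.37 ± 0.23 and the IKO difference 0.38 ± 0.23. The stage average rose in IKO (0.48 ± 0.12 (adjusted p = 0.00594)), and in SKO it was 0.15 ± 0.12 (adjusted p = 0.386) with a call by stage (adjusted p = 0.0144). Slc25a29, which starts next to Slc25a47 on the other strand, had few reads and was called in no comparison.

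In IKO livers the other rises were of Slc25a11, the 2-oxoglutarate/malate carrier (0.25 ± 0.06 (adjusted p = 0.00392)), Slc25a3 (0.25 ± 0.06 (adjusted p = 0.00713)), Slc25a13 (0.29 ± 0.09 (adjusted p = 0.0258)) and Slc25a33, a pyrimidine nucleotide carrier (0.27 ± 0.08 (adjusted p = 0.0292)). At 1 month Slc25a11 had 613, 541, 631 and 662 in WT and 827, 951, 901 and 827 in IKO, Slc25a3 1293, 1015, 1332 and 1391 against 2015, 1826, 1900 and 1816, and Slc25a13 998, 607, 864 and 868 against 1642, 1523, 1331 and 1262. Each IKO library was above each WT library for these 3 genes. Their 1-month differences were 0.50 ± 0.12, 0.58 ± 0.13 and 0.78 ± 0.17, and the 8-month ones 0.14 ± 0.12, -0.00 ± 0.13 and -0.01 ± 0.17. No member was called without 1 month, where the adjusted p ranged from 0.21 (Slc25a11) to 0.604 (Slc25a13). No member differed between stages in IKO by limma (0 at adjusted p, 4 at an unadjusted p below 0.05, 0 by limma-voom, against 0.0694% of all genes). The count of 5 became 3 without WT 3-month replicate 1; the Slc25a13 call was lost without WT 1-month replicate 2 (adjusted p = 0.0616) or WT 3-month replicate 1 (adjusted p = 0.0695) or IKO 8-month non-tumour replicate 1 (adjusted p = 0.0504), and the Slc25a33 call without WT 3-month replicate 1 (adjusted p = 0.0659) or IKO 3-month replicate 2 (adjusted p = 0.0536) or WT 5-month replicate 2 (adjusted p = 0.0559) or IKO 5-month replicate 3 (adjusted p = 0.0557). Slc25a15 lies 0.261 Mb from Ikbkb, and its IKO difference was 0.07 ± 0.09 (adjusted p = 0.716).

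Markers of other cells moved in SKO. 13 of 14 macrophage markers rose, 7 of 8 proliferation genes, 4 of 11 stellate and fibroblast markers and 3 of 6 erythroid markers, and 6 of 10 hepatocyte markers fell while 1 rose. Summed hepatocyte marker reads at 1 month were 280000 to 349000 in SKO and 679000 to 881000 in WT, and summed macrophage reads were 7040 to 9210 and 3580 to 8150. In IKO, 2 of 14 macrophage markers rose and 1 of 10 hepatocyte markers fell. The part of these cells in the carrier differences was not tested.

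In BKO livers Slc25a4, the ADP/ATP exchanger of muscle and heart (chromosome 8, 46206797 to 46211284, minus strand), was higher at every stage. WT had 61.7, 58.7 and 46.7 normalised reads and BKO 113, 90.8 and 108 at 1 month, and 32.7, 45.3 and 52.8 against 69.0, 82.0 and 75.2 at 3 months. At 5 months the values were 43.8, 50.5 and 47.9 and 88.0, 56.0 and 66.7, and at 8 months 50.3, 56.7 and 47.2 and 73.5, 81.6 and 83.8. WT and BKO overlapped at no stage, and the mean difference was 0.53 ± 0.07 (adjusted p = 2.94e-06). In MKO it was 0.20 ± 0.07 (adjusted p = 0.143).

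Slc25a21 moved the other way. WT had 46.6, 56.9 and 72.2 and BKO 17.3, 11.1 and 13.3 at 1 month, and 67.5, 63.5 and 86.2 against 20.9, 21.8 and 18.4 at 3 months. At 5 months WT had 109.5, 74.3 and 102 and BKO 54.9, 22.9 and 59.8; at 8 months BKO replicate 2, at 75.3, lay within the WT range. The mean difference was -0.96 ± 0.14 (adjusted p = 6.55e-06), with -1.20 ± 0.29, -1.15 ± 0.29, -0.81 ± 0.29 and -0.68 ± 0.29 by stage. No member differed between stages in BKO by limma (0 called, 4 at an unadjusted p below 0.05, 0 by limma-voom, against 0.663% of all genes).

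**Figure D5:**
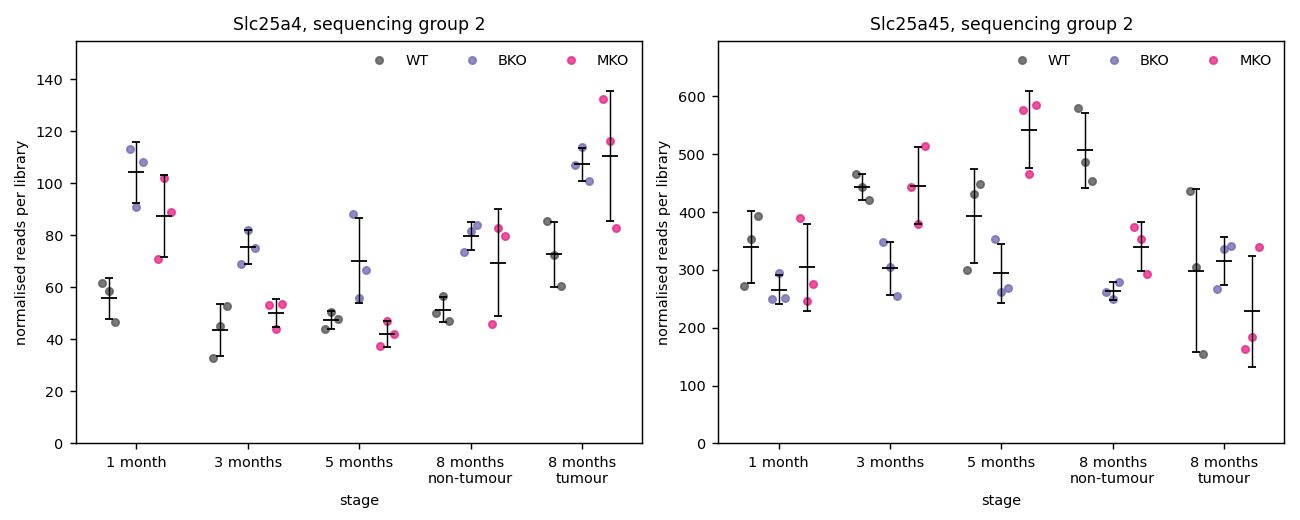
Slc25a4 (left) and Slc25a45 (right) in every library of sequencing group 2 (points, normalised reads, linear axis from 0) by stage for WT, BKO and MKO, with the mean and SD of 3 libraries. BKO points of Slc25a4 lie above WT at every non-tumour stage; BKO points of Slc25a45 lie below WT at 3 months and at 8 months in non-tumour liver.

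Slc25a45, a carrier of less settled substrate, had 466, 443 and 420.3 in WT and 348, 305 and 255 in BKO at 3 months, and 579.6, 487 and 454 against 262, 249 and 279.7 at 8 months (-0.52 ± 0.11 (adjusted p = 0.00108) over stages). Slc25a42 had 183, 232 and 204 in WT and 115, 79.7 and 131 in BKO at 1 month (-0.51 ± 0.11 (adjusted p = 0.00149) over stages). Slc25a45 did not overlap between the genotypes at either of these ages, and Slc25a42 did not at 1 month. Slc25a17 (-0.47 ± 0.12 (adjusted p = 0.00449)) and Slc25a20 (-0.33 ± 0.11 (adjusted p = 0.0288)) also fell, and Slc25a12 (0.32 ± 0.08 (adjusted p = 0.00386)) and the pyrimidine nucleotide carrier Slc25a36 (0.24 ± 0.09 (adjusted p = 0.0439)) rose. Slc25a12 had 255, 243 and 256 in WT and 436, 321 and 366 in BKO at 3 months, without overlap. Slc25a28, mitoferrin-2, also fell (-0.23 ± 0.08 (adjusted p = 0.0387)). The Slc25a20 call was lost without BKO 1-month replicate 3 (adjusted p = 0.0512) or WT 3-month replicate 1 (adjusted p = 0.0604) or BKO 3-month replicate 2 (adjusted p = 0.0572) or WT 5-month replicate 3 (adjusted p = 0.0608) or WT 8-month non-tumour replicate 3 (adjusted p = 0.0518) or BKO 8-month non-tumour replicate 1 (adjusted p = 0.0755), the Slc25a28 call without any of 14 libraries (adjusted p from 0.0506 to 0.0891), and the Slc25a36 call without any of 16 libraries (adjusted p from 0.0523 to 0.103). Of the members on the chromosome of Ctnnb1, Slc25a38, a glycine carrier 0.805 Mb away, had a difference of -0.03 ± 0.09 (adjusted p = 0.851).

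In BKO livers 10 of 11 stellate and fibroblast markers, 5 of 6 cholangiocyte markers, 7 of 14 macrophage markers and 2 of 10 hepatocyte markers rose. Summed hepatocyte marker reads at 1 month were 1140000 to 1300000 in BKO and 876000 to 1040000 in WT of sequencing group 2. Their part in the carrier differences was not tested.

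In MKO livers the branched-chain amino acid carrier Slc25a44 had 293, 264 and 311 in WT and 200.1, 187 and 201 in MKO at 1 month, and 301, 273 and 319 against 217, 197 and 251 at 8 months. MKO lay below WT at both ages, and at 5 months, with 260.4, 295 and 254 in WT and 307, 217 and 289.7 in MKO, it overlapped. The mean difference was -0.29 ± 0.07 (adjusted p = 0.0159), and without 1 month it was not called (adjusted p = 0.134). The next smallest p-values were those of members with no call: Slc25a23 at 0.25 ± 0.08 (adjusted p = 0.0814) and Slc25a4 at 0.20 ± 0.07 (adjusted p = 0.143). No member differed between stages (0 called by limma, 3 at an unadjusted p below 0.05, 0 by limma-voom, against 0.339% of all genes). In MKO livers 2 of 10 hepatocyte markers fell and 1 of 14 macrophage markers rose. Summed hepatocyte marker reads were lower than in WT without overlap at 1 month (556000 to 616000 against 876000 to 1040000), 3 months (483000 to 508000 against 730000 to 949000) and 5 months (522000 to 563000 against 842000 to 917000). Summed macrophage reads were higher without overlap at 8 months (8160 to 15600 against 3210 to 7270). Sinusoidal endothelial markers, 0 of 9 called over the stages, summed to less than in WT at 3 and 5 months and to more at 8 months, without overlap. The part of these cells in the difference of Slc25a44 was not tested. The count of 1 became 2 without MKO 5-month replicate 2, or without MKO 8-month non-tumour replicate 1 or 3. Slc25a13, 11.247 Mb from Met, had a difference of -0.25 ± 0.11 (adjusted p = 0.203).

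Tumours of each knockout were also compared with WT tumours. IKO tumours had 5 members higher and 0 lower (12.5%, against 3.6% of all genes, 2.48% higher and 1.13% lower), among them Slc25a21, Slc25a42, Slc25a45 and the glutamate carrier Slc25a22. All 5 are among the members that fell in WT tumours, a comparison that shares the WT tumour libraries with this one. Slc25a21 had 9.2, 9.01, 0 and 16.9 normalised reads in WT tumours and 33.6, 15.99, 25.8 and 34.2 in IKO tumours, a difference of 0.91 ± 0.20 (adjusted p = 0.00365) with overlap. Slc25a42 had 69.0, 69.1, 49.6 and 67.5 against 144, 72.8, 139 and 148 (0.73 ± 0.17 (adjusted p = 0.0063)), and Slc25a22 314, 385, 255 and 344 against 633, 462, 593 and 697 (0.82 ± 0.21 (adjusted p = 0.0152)), both without overlap. Slc25a45 had 302, 120.1, 158 and 316 against 375, 291, 477 and 378 (0.77 ± 0.19 (adjusted p = 0.0132)).

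Without WT 8-month tumour replicate 3, 0 members were called in IKO tumours. In that library Slc25a21 was at 0 and Slc25a42, at 49.6, was the lowest of the group. 3 members were called without WT tumour replicate 2 and without each of IKO tumour replicates 1, 3 and 4, and 0 when only the 2 groups compared were fitted. Summed erythroid markers were higher in IKO than in WT tumours without overlap (4550 to 6330 against 3000 to 4150; 1 of 6 rose), and proliferation markers were 292 to 427 against 402 to 774 with 0 of 8 called. 1 of 10 hepatocyte and 1 of 6 cholangiocyte markers fell. Their part in the carrier differences was not tested. The test of the difference itself, the tumour effect in IKO minus that in WT, called 0 members by limma (8 at an unadjusted p below 0.05, 0 by limma-voom, against 0.123% of all genes). Among its smallest p-values were those of Slc25a21 (0.96 ± 0.28 (adjusted p = 0.168)), Slc25a15 (0.74 ± 0.25 (adjusted p = 0.283)) and Slc25a51 (0.86 ± 0.35 (adjusted p = 0.425)). So no tumour effect on a carrier was shown to differ between IKO and WT.

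MKO tumours had 1 member higher and 1 lower than WT tumours (5% of members, against 4.03% of all genes, 2.99% higher and 1.04% lower). Slc25a24 had 31.4, 21.3 and 18.5 in WT and 128, 80.6 and 32.4 in MKO tumours (1.05 ± 0.24 (adjusted p = 0.0116)), and Slc25a44 201, 254 and 268 against 148, 133 and 197 (-0.53 ± 0.14 (adjusted p = 0.0246)). Neither gene's groups overlapped. The Slc25a24 call was lost without MKO 8-month tumour replicate 1 (adjusted p = 0.143) or MKO 8-month tumour replicate 2 (adjusted p = 0.0522), and the Slc25a44 call without WT 8-month tumour replicate 2 (adjusted p = 0.069) or WT 8-month tumour replicate 3 (adjusted p = 0.117) or MKO 8-month tumour replicate 1 (adjusted p = 0.116) or MKO 8-month tumour replicate 2 (adjusted p = 0.146). In MKO tumours 10 of 14 macrophage markers rose, with summed reads of 7510 to 14700 against 3280 to 3790 in WT tumours, and their part was not tested.

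SKO and BKO tumours differed from WT tumours in 0 members by limma (8 and 4 at an unadjusted p below 0.05, 0 and 0 by limma-voom, against 1.72% and 0.548% of all genes). Slc25a32 had 129, 102, 140.1 and 90.5 normalised reads in WT and 60.6, 92.9, 88.3 and 78.5 in SKO tumours, a difference of -0.41 ± 0.20 (adjusted p = 0.346). Slc25a4 had 85.3, 72.4 and 60.4 in WT and 107, 114 and 101 in BKO tumours (0.44 ± 0.15, adjusted p = 0.211). The tumour effect minus that of WT called 0 members in SKO, BKO and MKO by limma (5, 2 and 2 at an unadjusted p below 0.05, 0 by limma-voom in each, against 0.0308%, 0.0308% and 0.131% of all genes). Of these, Slc25a45 had the smallest p in BKO (1.04 ± 0.32 (adjusted p = 0.42)) and Slc25a44 in SKO (0.66 ± 0.22 (adjusted p = 0.204)).

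From 1 to 8 months in WT non-tumour liver, 4 members rose and 2 fell in sequencing group 1 (15%, against 7.0% of all genes, 3.99% up and 3.02% down). As all mice had received DEN, age cannot be told apart here from time since DEN or from the presence of tumours. Slc25a16 went from 60.4, 46.1, 46.8 and 50.4 to 89.4, 109.6, 87.1 and 85.8 normalised reads (0.64 ± 0.14 (adjusted p = 0.00188)), and Slc25a39 from 6995, 8148, 6964 and 6305 to 10520, 10600, 10730 and 9493 (0.54 ± 0.13 (adjusted p = 0.00613)). Slc25a42 went down, from 294, 322, 330.5 and 316 to 182, 195, 213 and 144 (-0.71 ± 0.17 (adjusted p = 0.00615)). None of these 3 overlapped between the ages. Slc25a45 also rose (0.68 ± 0.19 (adjusted p = 0.0233)), and Slc25a12 fell (-0.37 ± 0.12 (adjusted p = 0.0494)). The first call was lost without WT 1-month replicate 1 (adjusted p = 0.0577) or WT 1-month replicate 3 (adjusted p = 0.0543) or WT 8-month non-tumour replicate 1 (adjusted p = 0.0897) or WT 8-month non-tumour replicate 2 (adjusted p = 0.0757), and the second without any of 7 libraries (adjusted p from 0.0585 to 0.143). The count of 6 became 3 without WT 1-month replicate 3.

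In sequencing group 2, 1 member rose from 1 to 8 months (2.5%, against 1.72% of all genes, 0.925% up and 0.794% down). Slc25a16 had a difference of 0.22 ± 0.21 (adjusted p = 0.664) and Slc25a42 of 0.10 ± 0.23 (adjusted p = 0.882) in that group.

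Genes of the same pathway were followed in lists. The family members named otherwise (Ucp2, an uncoupling protein, and the outer-membrane proteins Mtch1 and Mtch2) rose in 2 of 3 cases in SKO livers: Ucp2 by 0.71 ± 0.13 (adjusted p = 2.19e-05) and Mtch1 by 0.34 ± 0.07 (adjusted p = 0.000396). Macrophage markers also rose in SKO livers, and the part of such cells in these rises was not tested. Ucp2 also rose in WT tumours of both sequencing groups, by 0.71 ± 0.25 (adjusted p = 0.0193) and 1.18 ± 0.26 (adjusted p = 0.000934). Of 16 other transport proteins of the mitochondrial membranes, Abcb10, a transporter needed for heme synthesis, fell in all 6 tumour sets, from -1.27 ± 0.18 in WT of sequencing group 2 to -0.54 ± 0.18 in BKO. In SKO livers 2 of the 16 rose and 4 fell (against 12.0% and 10.9% of all genes), with Ghitm at 0.43 ± 0.07 (adjusted p = 1.08e-06) and Sfxn2, a sideroflexin, at -0.42 ± 0.08 (adjusted p = 7.78e-05). In BKO livers 2 rose and 2 fell (against 10.6% and 9.04%), and the serine carrier Sfxn1 rose by 0.74 ± 0.09 (adjusted p = 4.23e-07). Of 12 genes of the machinery that imports carrier proteins, 2 rose and 3 fell in WT tumours of sequencing group 1 (against 22.9% and 19.2% of all genes), among them Timm8b (0.82 ± 0.16 (adjusted p = 5.15e-05)) and Timm10 (-0.72 ± 0.17 (adjusted p = 0.000747)).

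Of 31 enzymes that use the carried metabolites, 4 rose and 16 fell in WT tumours of sequencing group 1, against 22.9% and 19.2% of all genes. In WT of group 2, 3 rose and 15 fell, against 15.0% and 12.0%. SKO had 6 higher and 15 lower (21.0% and 18.7% of all genes), IKO 6 and 8 (18.2% and 15.1%), BKO 3 and 10 (8.39% and 6.32%), and MKO 1 and 11 (9.76% and 7.56%). The median difference of the 31 was -0.53, -0.52, -0.30, -0.18, -0.35 and -0.48 in that order. Beside the ornithine carrier, the enzymes of ornithine and the urea cycle fell in WT of sequencing group 1: ornithine aminotransferase Oat by -3.11 ± 0.38 (adjusted p = 2.55e-09), Cps1 by -1.80 ± 0.23 (adjusted p = 6.84e-09) and Otc by -1.77 ± 0.23 (adjusted p = 9.79e-09). Glud1, glutamate dehydrogenase, rose by 1.20 ± 0.12 (adjusted p = 1.73e-11). In non-tumour liver over the stages, 4 of the 31 rose and 9 fell in SKO (against 12.0% and 10.9% of all genes), with carnitine acetyltransferase Crat at 1.14 ± 0.15 (adjusted p = 6.77e-08) and Mdh2 at 0.40 ± 0.08 (adjusted p = 6.79e-05). In BKO 3 rose and 5 fell (against 10.6% and 9.04%), with Oat at -2.88 ± 0.28 (adjusted p = 1.86e-09) and Gpd2 at -0.84 ± 0.11 (adjusted p = 6.7e-07). IKO livers had 2 higher (Cpt1a, 0.35 ± 0.08 (adjusted p = 0.00493), and Fech) and 0 lower (against 3.87% and 5.17%), and MKO livers 1 higher (Mdh2, 0.36 ± 0.09 (adjusted p = 0.0231)) and 0 lower (against 1.58% and 1.13%). IKO tumours had 5 enzymes above WT tumours (against 2.48% of all genes), with Oat at 1.77 ± 0.38 (adjusted p = 0.00293) and Ass1 at 1.15 ± 0.26 (adjusted p = 0.00531).

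Of the 40 carriers, 7 were called in no comparison: Slc25a14, Slc25a26, Slc25a29, Slc25a35, Slc25a38, Slc25a40 and Slc25a53. These include Slc25a53, with a median of 4.87 normalised reads and a 0 in some libraries, and Slc25a14, with 9.78. Small differences of members with few reads may go uncalled at this depth, but this was not tested. Slc25a35 and Slc25a38 had medians of 34.3 and 41.4 normalised reads, above that of Slc25a24 (20.4), which was called. In each sequencing group, 36 of the 40 members had a mean of at least 5 on the log2 scale. Slc25a36 was below it in group 2 and was called there in BKO livers.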

How the data were processed

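The authors deposited 1 table of 105 liver libraries with log2 values per gene on a variance-stabilised scale, and per the submitters' processing notes STAR 2.7.10a, HTSeq 2.0.2, DESeq2 1.32.0 and the GRCm38 (mm10) build were used. Undoing the transform, whose floor of 3.8289 is 0 reads, gave normalised reads and whole reads (100% within 0.05 for values below 1000 reads). No 2 of the 5460 pairs of libraries agreed within sampling noise (lowest chi-square 5.514 per gene). Total reads ranged from 4676444 to 20231121, median 8353515.

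Groups came from the labels. limma 3.58.1 (R 4.3.3) with a trend was fitted to the deposited log2 values of each sequencing group, with 1 mean per genotype and stage and Benjamini-Hochberg adjustment over 12966 genes, 24 comparisons in all. Differences at single stages are given with their SE and no call. Log2 values of 12966 genes, not reads, were simulated with normal spread around 1 mean per gene. Each gene had 1 SD, pooled over all groups of its sequencing group. A wider spread in tumours was thus not simulated, and recovery there may be lower than given. In the simulation the SKO and BKO non-tumour comparisons recovered 96.5% and 88.5% of 1.5-fold changes. Against WT tumours, IKO tumours recovered 38.5% of 1.5-fold and 91.5% of 2-fold changes, SKO tumours 33% and 90%, and BKO tumours 35.5% and 85%. The changes were added in full on the log2 scale, which understates changes of genes with few reads, so fewer of those may be recovered.

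Up to 6 rising and 6 falling members with the smallest p were named per comparison, up to 4 for interactions and tumour effect differences, and up to 4 genes per other list and comparison. Values in every library of a comparison are given for members called in at least 4 comparisons or among the 3 smallest p of a stage average. Further members were named after their values were seen. The values of 1 member are not reported here, and the counts of called members include it. The members, gene lists and tests were chosen with earlier results of these data known. The GC box and CCAAT box were added to the promoter search after the other motifs had been searched, and promoters are those of RefSeq on GRCm38.p6.

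Replicate numbers recur between groups. Same-numbered libraries deviated together in every pair (correlation over 0.1) in 2 of 28 pairs of groups. These were BKO tumour with BKO non-tumour (0.339 to 0.479) and MKO with WT at 8 months non-tumour (0.159 to 0.315). The reported fits did not use the replicate number, there or elsewhere. A block on it was fitted as an alternative for every comparison. Alternatives were a filter on means, quantile normalization, no trend, limma-voom on recovered reads, only the groups compared, the replicate block, each library left out, and, added after the data were seen, leaving out 1 month.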

Additional observations from a re-analysis of the deposited data

Results flagged for a closer look

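Members called in at least 4 comparisons or among the 3 smallest p of a stage average were tested for outlying libraries. Each was tested in the 15 groups of sequencing group 1, which gave 360 sets of 4 values from the same libraries. Sequencing group 2 was not tested. In 19 of the 360, 1 library's gap to the nearest other, as a share of the range, exceeded Dixon's 95% critical value. Chance flags about 1 in 20 such sets of values. Several of these libraries belong to groups on which calls rest. In WT tumours, Slc25a42 was 49.6 normalised reads in replicate 3 against 67.5 to 69.1 in the others, Slc25a39 was 8731 in replicate 3 against 7784 to 7867, and Slc25a20 was 387 in replicate 2 against 215 to 236. In WT non-tumour liver at 8 months, replicate 2 had 370.2 for Slc25a12 (others 309.7 to 318) and 109.6 for Slc25a16 (others 85.8 to 89.4), and replicate 3 had 193 for Slc25a17 (others 178 to 179). At 5 months WT replicate 2 had 1791 for Slc25a3 (others 1916 to 1933) and WT replicate 3 had 409 for Slc25a17 (others 332 to 337).

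In SKO, Slc25a20 was 428 in tumour replicate 1 against 214 to 233, and Slc25a17 was 168 in 1-month replicate 3 against 218 to 225. In IKO tumours, replicate 2 had 72.8 for Slc25a42 (others 139 to 148) and 1421 for Slc25a10 (others 1981 to 2081), and replicate 4 had 94.0 for Slc25a48 (others 74.6 to 76.2). In IKO non-tumour liver at 8 months, replicate 3 had 69.3 for Slc25a21 (others 88.6 to 92.5). At 5 months IKO replicate 1 had 1131 for Slc25a11 (others 852 to 882) and 215 for Slc25a45 (others 458 to 484), and replicate 2 had 644 for Slc25a51 (others 327 to 375). At 3 months IKO replicate 1 had 203 for Slc25a32 (others 136 to 139) and replicate 2 had 375 for Slc25a37 (others 290.1 to 296).

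The difference between SKO and WT itself differed between stages for 9 members in the limma F test over stages. The adjusted p was 0.00174 for Slc25a32, 0.00556 for Slc25a15, 0.00648 for Slc25a10, 0.0132 for Slc25a12, 0.0144 for Slc25a47, 0.0151 for Slc25a13, 0.0207 for Slc25a37, 0.0277 for Slc25a3 and 0.0352 for Slc25a1. Slc25a13 had a difference of 0.64 ± 0.17 at 1 month and -0.44 ± 0.17 at 8 months, and Slc25a1 of 0.57 ± 0.16 and -0.39 ± 0.16. Slc25a3 was lost without WT 1-month replicate 2 (adjusted p = 0.0725) or SKO 1-month replicate 2 (adjusted p = 0.0544) or SKO 1-month replicate 3 (adjusted p = 0.062) or WT 8-month non-tumour replicate 1 (adjusted p = 0.053) or SKO 8-month non-tumour replicate 1 (adjusted p = 0.056) or SKO 8-month non-tumour replicate 3 (adjusted p = 0.0586), and Slc25a1 without any of 9 libraries (adjusted p from 0.0522 to 0.0908).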

How the results depend on the processing

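The filter on means, the fit with no trend and limma-voom kept all 24 counts of called members within 1.5 times the reported one, and so did the replicate block; no called difference changed sign under any alternative. Without 1 month, an alternative chosen after seeing the data, the counts were 0 for IKO, 5 for SKO and 0 for MKO in non-tumour liver. Quantile normalization gave 5 members for the SKO difference between stages. With only the groups compared in the fit, the counts were 0 for IKO tumours against WT tumours, 0 for BKO and 0 for MKO tumour against non-tumour, 2 for MKO non-tumour, 1 for the MKO difference between stages, 0 for MKO tumours against WT tumours and 0 for WT age in sequencing group 2; fewer libraries then set the estimate of spread. With 1 library left out, counts ranged from 3 to 6 for IKO non-tumour, 0 to 7 for IKO tumours, 0 to 1 for the IKO tumour effect difference, 0 to 1 for SKO tumours, 3 to 7 for WT age in sequencing group 1, 0 to 1 for BKO tumours, 3 to 15 for BKO tumour against non-tumour, 1 to 2 for MKO non-tumour, 0 to 3 for MKO tumours and 5 to 17 for MKO tumour against non-tumour. The single libraries were WT tumour replicate 4 or IKO tumour replicate 2 for the IKO effect (1 called), SKO tumour replicate 3 for SKO tumours (1 called) and BKO tumour replicate 3 for BKO tumours (1 called).

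With the replicate block, calls were lost for Slc25a39 in SKO non-tumour (adjusted p = 0.064), Slc25a28 in BKO non-tumour (0.0504), and Slc25a1 (0.066) and Slc25a3 (0.0529) for the SKO difference between stages. Calls were gained for Slc25a46 in SKO tumour against non-tumour (0.0489), Slc25a4 in MKO tumours against WT tumours (0.0474), and Slc25a22 (0.0433) and Slc25a51 (0.0204) in MKO tumour against non-tumour, beside Slc25a20 in BKO. The block changed no other call. Depth may limit calls of members such as Slc25a53, at a median of 4.87 normalised reads, but this was not tested.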
